A study of Mus musculus with 6 samples.

Results

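Granulocyte transcripts were measured in RNA libraries made from sorted regulatory T (Treg) cells; most of these genes are known as products of granulocytes and not of T cells. The set comprised 33 genes chosen by symbol as known granulocyte genes, of which 32 were among the 23366 gene symbols of the count table; Ly6g was not analysed here. They were arranged by the stage of granulocyte development at which each is known to be made. CD4+GFP+ cells had been purified by flow cytometry from the liver (n = 3 libraries) and the spleen (n = 3 libraries) of 12-day-old Foxp3GFP knock-in mice, whose green fluorescence reports Foxp3, the lineage factor of Treg cells. All 6 libraries share that genotype, age and sort gate. Neither the number of mice behind a library nor any pairing of liver with spleen is given by the labels, so each p-value reflects only how far these libraries spread, part of which may be technical.

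Neutrophils mature in the bone marrow, and in the newborn mouse also in the spleen and liver, through steps at which different granules are filled. Promyelocytes make the primary (azurophil) granules, which hold myeloperoxidase and the neutrophil serine proteases. Myelocytes and metamyelocytes then make the secondary (specific) granules, with lactoferrin, cathelicidin and lipocalin, under the transcription factor C/EBP epsilon. Chemokine and chemoattractant receptors, the collagenase Mmp8 and other late transcripts mark band and mature cells. Eosinophils fill their granules with major basic protein and eosinophil peroxidase.

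Transcripts of Treg identity were abundant in all 6 libraries. Foxp3 was at 1266 ± 58.4 CPM (read counts scaled to a common library total; SD, n = 3) in liver and 1160 ± 57.6 CPM in spleen (n = 3), and the summed level of 10 T cell and Treg identity genes lay between 5782 and 6402 CPM in each of the 6 libraries. Counts in genes ranged from 8437055 to 10951720 in liver. In spleen they were 1199410 in library 1, the shallowest, and 11408960 and 11358446 in libraries 2 and 3. A level of 3 counts was 2.58 CPM in spleen 1 and at most 0.361 CPM in the other libraries. Mpo, a defining granulocyte gene, had at least 77 counts in every library. The 32 granulocyte genes together took between 0.0517% and 0.0550% of the gene counts of a liver library and between 0.0765% and 0.111% of those of a spleen library. In bulk libraries such as these, fewer cells of a type and less RNA per cell cannot be told apart.

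All 4 tested primary granule genes, 6 of 10 secondary granule genes and 2 of 9 late genes were higher in the spleen libraries, and 1 secondary granule gene and 1 late gene were higher in the liver libraries. Of the 32 genes, 29 passed the filter on low counts, and 15 of these were higher in spleen, 2 were higher in liver and 12 did not pass the test (edgeR's quasi-likelihood test, Benjamini-Hochberg adjusted p under 0.05 over 11716 genes). Over all genes tested, 6.9% (808 genes) were higher in spleen and 9.28% (1087 genes) higher in liver; upper-quartile scaling called 1014 higher in spleen and 954 higher in liver, with 15 and 2 of the granulocyte genes among them. Every spleen library was above every liver library for 15 of the 29 genes, against 15.2% of all tested genes, and every liver library was above every spleen library for 3, against 17.7%. Of the 29, 23 had reached the filter's level in all libraries of both tissues. The others fell short of it in at least 1 liver library (5 genes), at least 1 spleen library (3 genes) or both, so some passed only through the tissue where they were high. Among the called genes these were Ctsg, Cebpe and Prg2, each of which reached the level in all spleen libraries but in only 1 liver library. With no filter, all 32 could be tested, and the counts were again 15 higher in spleen and 2 higher in liver, where 6.38% and 7.93% of 16138 genes were called.

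Among the primary, secondary and late genes, the median difference was smaller at each later stage and changed sign at the last. With no filter, the median log2 fold change (liver minus spleen) was -2.22 over 5 primary granule genes, -1.10 over 10 secondary granule genes and 0.48 over 10 late genes, beside -0.0067 over all genes. Outside this order, the median was -2.51 over 3 eosinophil and histamine genes and -1.05 over the 2 stage factors. The value of -2.51 is that of Epx, which was tested only without the filter. With the filter, the median was -0.76 over 2 eosinophil and histamine genes. The late median of 0.48 lies between the values of Mmp8 (0.41) and Retnlg (0.56), neither of which was called. Summed, the late genes had the higher mean in spleen, at 236.8 ± 76.4 CPM beside 169.7 ± 8.51 CPM in liver (SD, n = 3 each). These medians describe the lists and carry no test of one stage against another. Over the other settings and with each library left out in turn, the primary median stayed between -2.32 and -1.92 and the secondary between -1.30 and -0.96, whereas the late median ranged from -0.31 to 0.71. Where those lists could be tested, the eosinophil and histamine median ranged from -2.51 to -0.58 and the stage factor median from -1.34 to 0.10.

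**Figure D1:**
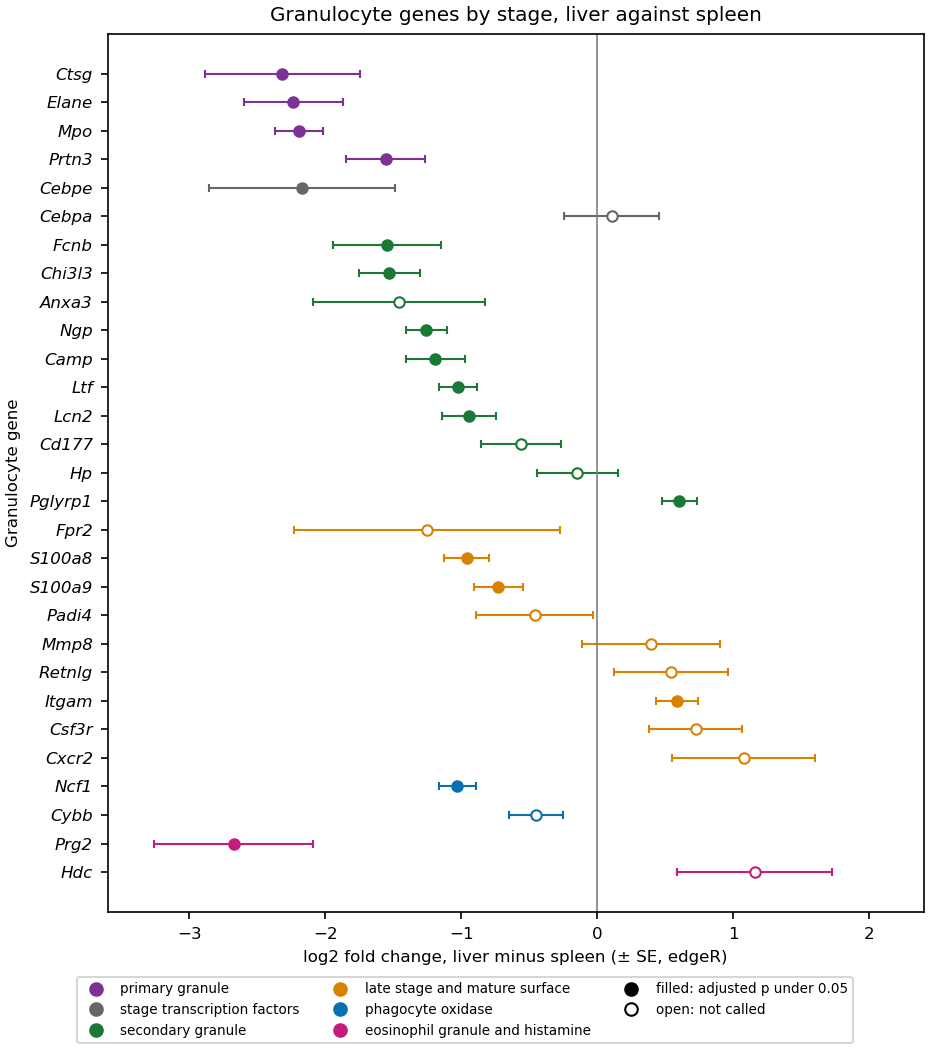
Log2 fold change (liver minus spleen, horizontal axis, ± SE from edgeR) of the 29 granulocyte genes that passed the filter, coloured by stage and ordered by value within a stage; filled points passed the test and open points did not. The 4 primary granule genes lie between -2.31 and -1.56, whereas 5 of the 9 late genes lie above 0.

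The promoters of 5 genes are shown because their levels span the stages: Mpo and Elane of the primary granule, Ngp and Ltf of the secondary granule, and Cxcr2 of the mature cell. Each is the 250 bases before the RefSeq start of the gene in build GRCm38.p6, 5′ to 3′ on the strand of the gene, which is the plus strand for all 5. They lie at chr11:87793534-87793783, chr10:79886062-79886311, chr9:110419558-110419807, chr9:111019042-111019291 and chr1:74153744-74153993, in that order. Capitals mark matches on either strand to GAGGAA, a core recognised by the myeloid factor PU.1, and to TTGCNNAA, a core recognised by C/EBP factors.
Mpo: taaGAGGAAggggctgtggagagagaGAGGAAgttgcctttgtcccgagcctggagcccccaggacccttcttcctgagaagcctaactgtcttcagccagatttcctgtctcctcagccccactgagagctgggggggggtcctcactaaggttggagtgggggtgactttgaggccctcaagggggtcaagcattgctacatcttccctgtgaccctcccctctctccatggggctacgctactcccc
Elane: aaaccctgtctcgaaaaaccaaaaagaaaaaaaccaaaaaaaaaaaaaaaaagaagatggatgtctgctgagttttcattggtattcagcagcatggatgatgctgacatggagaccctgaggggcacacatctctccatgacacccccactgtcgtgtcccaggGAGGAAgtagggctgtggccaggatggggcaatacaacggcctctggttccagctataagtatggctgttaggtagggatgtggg
Ngp: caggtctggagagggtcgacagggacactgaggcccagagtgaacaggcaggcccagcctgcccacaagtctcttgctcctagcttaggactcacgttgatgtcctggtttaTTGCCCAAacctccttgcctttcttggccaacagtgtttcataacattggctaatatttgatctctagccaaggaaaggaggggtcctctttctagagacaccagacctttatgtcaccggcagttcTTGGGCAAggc
Ltf: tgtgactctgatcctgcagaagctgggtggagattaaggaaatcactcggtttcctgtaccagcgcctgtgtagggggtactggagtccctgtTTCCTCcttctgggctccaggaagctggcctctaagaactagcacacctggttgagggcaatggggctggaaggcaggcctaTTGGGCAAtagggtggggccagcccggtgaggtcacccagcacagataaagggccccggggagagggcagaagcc
Cxcr2: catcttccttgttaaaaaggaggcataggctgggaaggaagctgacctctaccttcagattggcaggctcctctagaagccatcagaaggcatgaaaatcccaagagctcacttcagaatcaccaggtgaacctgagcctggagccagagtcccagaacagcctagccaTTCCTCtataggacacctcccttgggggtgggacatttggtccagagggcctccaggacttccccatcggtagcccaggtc
RefSeq promoters were found for 28 of the 32 genes. GAGGAA was present in 14 of the 28 and in 23.1% of all 27025 RefSeq promoters of this length. TTGCNNAA was present in 7 of the 28 and in 9.55% of all. By stage, GAGGAA was in 4 of 5 primary, 4 of 8 secondary and 6 of 10 late promoters, and TTGCNNAA in 0 of 5 primary, 4 of 8 secondary (Ngp, Ltf, Lcn2 and Fcnb) and 3 of 10 late promoters (Mmp8, Retnlg and S100a9). Such matches describe the letters of the window and are not evidence of binding.

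All 4 primary granule genes that passed the filter were higher in spleen. Mpo, which encodes myeloperoxidase, was at 11.9, 10.3 and 15.3 CPM in the liver libraries and at 66.3, 54.4 and 54.8 CPM in the spleen libraries. The lowest spleen library was thus well above the highest liver library, and the 3 spleen libraries were close to each other although 1 was much shallower. The log2 fold change of Mpo was -2.19 ± 0.18 (SE; edgeR adjusted p = 1.65e-07), or 4.57-fold higher in spleen. Elane, which encodes neutrophil elastase, was at 2.65, 1.65 and 3.43 CPM in liver and 18.9, 10.5 and 10.5 CPM in spleen. Prtn3, the gene of proteinase 3, was at 6.73, 3.76 and 6.39 CPM in liver and 23.2, 14.5 and 15.3 CPM in spleen. The tissues overlapped for neither protease gene, and spleen 1 was the highest library for both. Elane had a log2 fold change of -2.23 ± 0.37 (edgeR adjusted p = 0.000295) and Prtn3 one of -1.56 ± 0.29 (edgeR adjusted p = 0.000940). These protease genes lie next to each other on chromosome 10, with 0 protein-coding genes between them.

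Ctsg, which encodes cathepsin G, another protease of this granule, was at 2.28, 0.367 and 0.834 CPM in liver and 3.44, 4.03 and 8.03 CPM in spleen. The groups did not overlap, but the gap was small, and the log2 fold change was -2.31 ± 0.57 (edgeR adjusted p = 0.00869). Without liver 2 or without spleen 3 Ctsg was not called, and its highest adjusted p over the alternatives was 0.128. Ms4a3, a membrane protein gene of granulocyte progenitors, did not pass the filter, with 3, 0 and 2 counts in liver and 1, 6 and 15 counts in spleen, and was not called without it (-2.27 ± 1.17, edgeR adjusted p = 0.209). Summed, the 5 primary granule genes reached 22.0 ± 5.30 CPM in liver (SD, n = 3), against 95.5 ± 15.2 CPM in spleen (SD, n = 3).

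Of the 2 stage factors, Cebpe, which drives secondary granule genes, was at 0.842, 0.825 and 1.57 CPM in liver and 14.6, 1.97 and 3.68 CPM in spleen. Spleen 1, with 17 counts, held most of the difference. The log2 fold change was -2.17 ± 0.69 (edgeR adjusted p = 0.0383); without spleen 1 it was -1.36 and the adjusted p 0.115, and the call was also lost when any 1 liver library was left out, with a highest adjusted p of 0.129. Cebpa, a factor of the early granulocyte and monocyte lineage, was at 7.82, 3.67 and 7.04 CPM in liver and 6.03, 5.74 and 5.56 CPM in spleen. Its liver values enclosed the spleen values, and it was not called (log2 fold change 0.11 ± 0.35, edgeR adjusted p = 0.883).

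Secondary granule genes were higher in spleen in 6 of 10 cases and higher in liver in 1, beside 6.9% and 9.28% of all tested genes. Ngp, the neutrophilic granule protein of the mouse, was at 69.4, 64.4 and 74.7 CPM in liver and 233, 134 and 154 CPM in spleen. Ltf, the iron-binding protein lactoferrin, was at 52.8, 55.1 and 57.7 CPM in liver and 150, 92.5 and 109 CPM in spleen. Both genes were even among the liver libraries and uneven among the spleen libraries, where library 1 was the highest, and neither overlapped between tissues. The log2 fold change was -1.26 ± 0.15 for Ngp (edgeR adjusted p = 1.22e-05) and -1.02 ± 0.14 for Ltf (edgeR adjusted p = 5.58e-05).

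Camp, which encodes the antimicrobial peptide cathelicidin, was at 23.2, 15.1 and 27.1 CPM in liver and 57.7, 37.3 and 57.9 CPM in spleen. Lcn2, the siderophore-binding lipocalin, was at 16.5, 20.5 and 20.6 CPM in liver and 47.3, 27.3 and 41.5 CPM in spleen. In each case the lowest spleen library, number 2, was still above all liver libraries. The differences were -1.19 ± 0.22 for Camp (edgeR adjusted p = 0.000740) and -0.94 ± 0.20 for Lcn2 (edgeR adjusted p = 0.00292). Camp, Ngp and Ltf lie in 1 stretch of chromosome 9, with 8 protein-coding genes between Camp and Ngp and 20 between Ngp and Ltf.

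Chi3l3, a chitinase-like secreted protein (Ym1), was at 7.82, 8.62 and 10.1 CPM in liver and 31.0, 20.2 and 28.4 CPM in spleen. Fcnb, the lectin ficolin B, was at 1.80, 1.93 and 2.50 CPM in liver and 6.89, 6.26 and 5.64 CPM in spleen. They had the widest differences of the called secondary granule genes, at -1.53 ± 0.22 for Chi3l3 (edgeR adjusted p = 9.59e-05) and -1.54 ± 0.40 for Fcnb (edgeR adjusted p = 0.0114). Fcnb was not called without spleen 2 (adjusted p = 0.0759). Chi3l3 has close paralogs in the mouse genome, so its counts are uncertain to the extent that reads could be placed in a paralog.

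The other 4 genes of this stage behaved differently. Cd177, a surface protein of neutrophils, was at 14.5, 7.25 and 7.97 CPM in liver and 8.61, 13.3 and 18.1 CPM in spleen, with overlapping groups (-0.56 ± 0.29, edgeR adjusted p = 0.226; limma-voom adjusted p = 0.0446). Hp, the haemoglobin-binding protein haptoglobin, was at 10.1, 6.42 and 8.34 CPM in liver and 10.3, 6.77 and 11.03 CPM in spleen, which overlapped almost fully (-0.15 ± 0.30, edgeR adjusted p = 0.802). Anxa3, an annexin of granulocytes, had 5, 4 and 21 counts in liver and 1, 28 and 43 in spleen and was not called (-1.46 ± 0.63, edgeR adjusted p = 0.137). Pglyrp1, which encodes a bactericidal peptidoglycan recognition protein and is also expressed by some T cells, went the other way, at 82.0, 78.0 and 94.2 CPM in liver and 47.3, 53.0 and 62.5 CPM in spleen. All 3 liver libraries were above all spleen libraries for Pglyrp1 (0.60 ± 0.13, edgeR adjusted p = 0.00294). Per kilobase of exon, its level in liver was 122 CPM, above the 56.9 CPM per kilobase of Ngp, whereas in spleen Pglyrp1 was at 78.2 and Ngp at 142 CPM per kilobase.

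**Figure D2:**
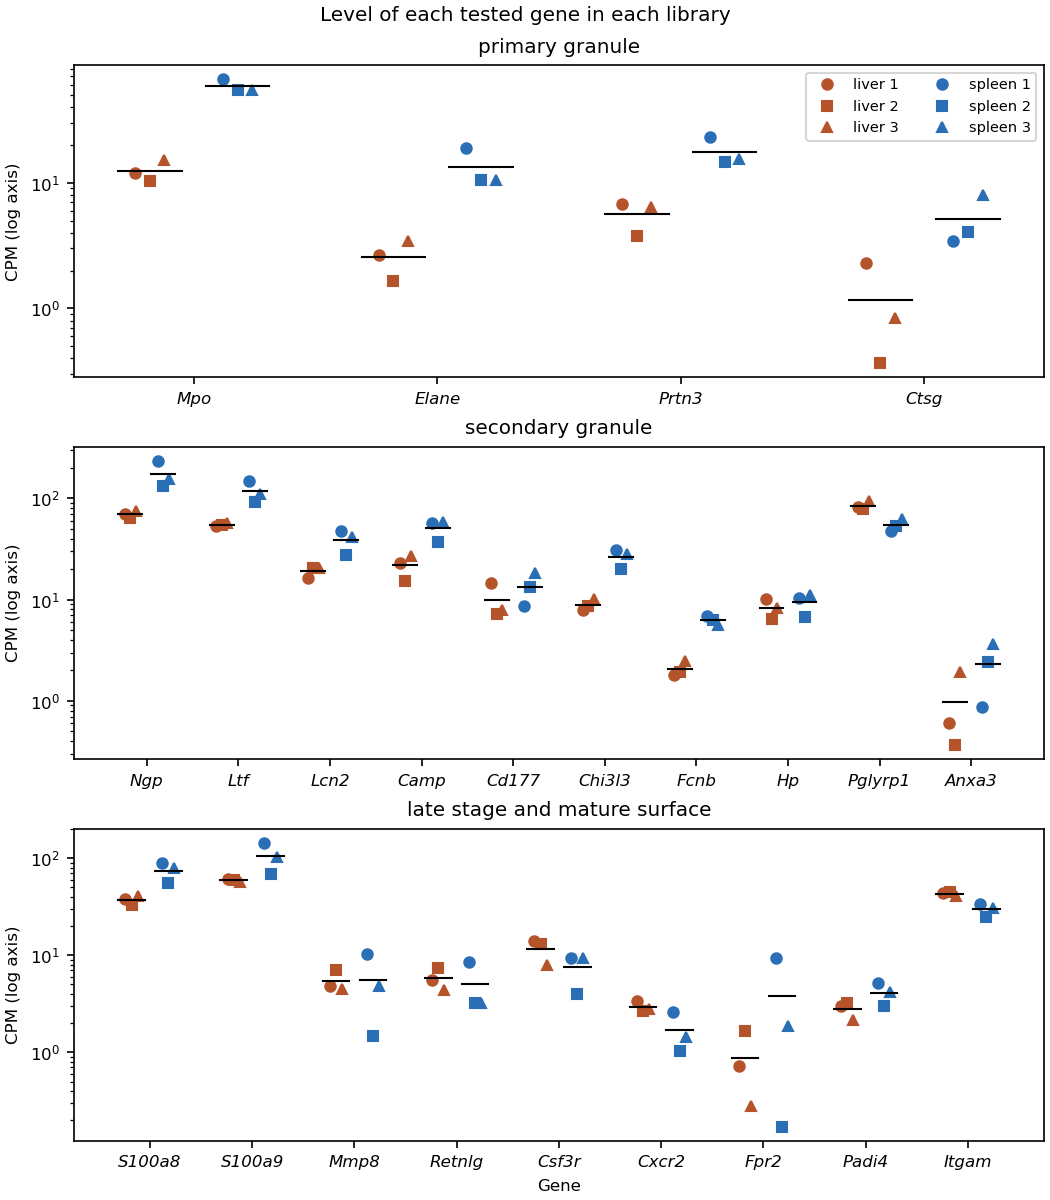
Level of each tested gene of 3 stages in each library, as CPM on a log axis; marker shape gives the library number, colour the tissue, and black bars the mean of 3 libraries. Spleen points lie above liver points for all 4 primary granule genes, whereas Csf3r, Cxcr2 and Itgam have the higher mean in liver.

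Of 9 late genes tested, 2 were higher in spleen, 1 was higher in liver and 6 did not pass. Over all tested genes the shares were 6.9% and 9.28%. S100a8 and S100a9 encode the subunits of calprotectin, a cytosolic protein that accumulates through neutrophil maturation. S100a8 was at 37.8, 32.8 and 40.4 CPM in liver and 89.5, 54.8 and 79.0 CPM in spleen. S100a9 was at 61.6, 59.7 and 56.4 CPM in liver and 144, 68.0 and 102 CPM in spleen. The groups did not overlap for either gene, although spleen 2 was close to the liver level of S100a9. The log2 fold changes were -0.96 ± 0.16 for S100a8 (edgeR adjusted p = 0.000465) and -0.73 ± 0.18 for S100a9 (edgeR adjusted p = 0.00880). Per kilobase of exon, S100a9 was the member with the highest level in spleen, at 200.1 CPM per kilobase. The 2 genes are neighbours on chromosome 3.

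Itgam, the integrin chain CD11b, was at 43.5, 45.3 and 40.6 CPM in liver and 33.6, 24.9 and 30.7 CPM in spleen. Of the late genes, edgeR called only Itgam higher in liver (0.58 ± 0.16, edgeR adjusted p = 0.0143), and this call was lost without liver 2, without spleen 2 and when every library was thinned to the depth of spleen 1, with a highest adjusted p of 0.158. Itgam is also made by monocytes, macrophages and some lymphocytes.

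Receptors and enzymes of mature neutrophils did not pass edgeR's test. Csf3r, the receptor for granulocyte colony-stimulating factor, was at 13.9, 13.1 and 7.97 CPM in liver and 9.47, 3.94 and 9.40 CPM in spleen, where liver 3 lay below 2 spleen libraries (0.72 ± 0.34, edgeR adjusted p = 0.175; limma-voom adjusted p = 0.0162). Mmp8, the neutrophil collagenase, was at 4.81, 6.97 and 4.54 CPM in liver and 10.3, 1.46 and 4.87 CPM in spleen. Retnlg, a resistin-like secreted protein, was at 5.53, 7.43 and 4.35 CPM in liver and 8.61, 3.26 and 3.25 CPM in spleen. For both Mmp8 and Retnlg the shallow library spleen 1 was the highest of all and the other spleen libraries were lower, so the spleen values enclosed those of liver. Their log2 fold changes were 0.39 ± 0.51 for Mmp8 (edgeR adjusted p = 0.666) and 0.54 ± 0.42 for Retnlg (edgeR adjusted p = 0.433). These 2 rest on 12 and 10 counts in spleen 1.

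Cxcr2, the chemokine receptor through which neutrophils leave the marrow, was at 3.37, 2.66 and 2.78 CPM in liver and 2.58, 1.03 and 1.45 CPM in spleen. All liver libraries were above all spleen libraries, but spleen 1 held only 3 counts and the gene was not called (1.08 ± 0.52, edgeR adjusted p = 0.189). Fpr1 and Fpr2, the formyl peptide receptors, are neighbours on chromosome 17. Fpr1 did not pass the filter, with 9, 12 and 6 counts in liver and 1, 1 and 2 counts in spleen, and was not called without it (2.22 ± 1.21, edgeR adjusted p = 0.244). Fpr2 varied widely among the spleen libraries, at 11, 2 and 22 counts, beside 6, 18 and 3 counts in liver (-1.25 ± 0.98, edgeR adjusted p = 0.444). Padi4, the enzyme that citrullinates histones in neutrophils, was between 2.13 and 3.21 CPM in liver and between 2.999 and 5.16 CPM in spleen (-0.46 ± 0.43, edgeR adjusted p = 0.534).

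Of the phagocyte oxidase genes, Ncf1, the cytosolic subunit p47phox, was at 36.7, 34.9 and 30.0 CPM in liver and 67.1, 69.2 and 69.7 CPM in spleen. Its spleen libraries were the most even of any called member, and the log2 fold change was -1.03 ± 0.13 (edgeR adjusted p = 2.60e-05). Cybb, the membrane subunit gp91phox, was at 29.9, 24.0 and 20.5 CPM in liver and 30.1, 26.8 and 42.4 CPM in spleen, with overlap (-0.45 ± 0.20, edgeR adjusted p = 0.147). B cells and macrophages also make this oxidase.

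Eosinophil granule genes were low. Prg2, which encodes major basic protein, had 13, 3 and 5 counts in liver and 5, 61 and 51 counts in spleen, which corresponded to 1.56, 0.275 and 0.463 CPM in liver and 4.30, 5.23 and 4.36 CPM in spleen. The groups did not overlap once depth was accounted for, and the difference was the widest of the called members (-2.67 ± 0.58, edgeR adjusted p = 0.00352). Prg2 reached the filter's level of 0.916 CPM in only 1 liver library, so it was tested only through its level in spleen. Epx, eosinophil peroxidase, did not pass the filter, with 5, 1 and 0 counts in liver and 1, 6 and 26 counts in spleen, and was not called without it (-2.51 ± 1.04, edgeR adjusted p = 0.0930). Hdc, the enzyme that makes histamine in basophils, mast cells and neutrophils, was at 2.65, 4.86 and 4.35 CPM in liver and 5.16, 0.771 and 1.97 CPM in spleen. The groups overlapped and it was not called (1.16 ± 0.57, edgeR adjusted p = 0.194; limma-voom adjusted p = 0.0177).

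Primary granule genes took a larger share of the granulocyte counts in every spleen library than in any liver library. They made up 4.29%, 3.11% and 4.70% of the counts of the 32 genes in liver and 9.83%, 11.2% and 9.48% in spleen. Their 95% Wilson intervals, which cover counting error only, reached at most 5.27% in liver and began at 8.34% or higher in spleen. Late genes made up 31.4%, 33.7% and 28.8% in liver and 27.3%, 21.5% and 24.9% in spleen, where the interval of spleen 1, from 24.98% to 29.8%, overlapped that of liver 3, from 27.7% to 30.0%. Secondary granule genes took between 49.9% and 55.0% in liver and between 51.7% and 52.6% in spleen. Pglyrp1, also expressed by some T cells, weighed more on the liver shares. It held 682, 851 and 1017 of the 2318, 2811 and 3295 secondary counts in liver. In spleen it held 55, 619 and 731 of 689, 4588 and 5757. The secondary shares without Pglyrp1 were not computed. Shares of 1 total are not independent of each other, so they were not tested.

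**Figure D3:**
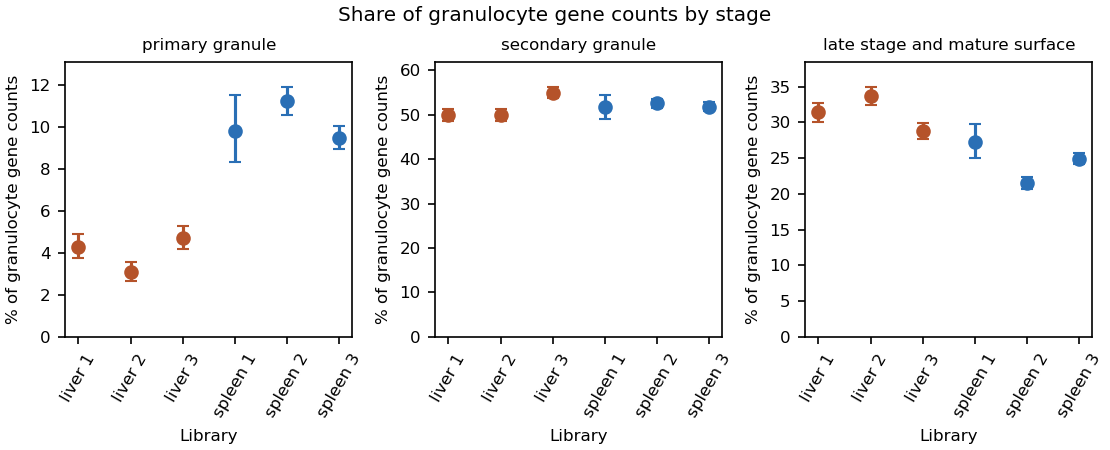
Percentage of the counts of the 32 granulocyte genes taken by each of 3 stages, per library, with 95% Wilson intervals that cover counting error only. The primary granule share is between 3.11% and 4.70% in liver and between 9.48% and 11.2% in spleen.

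Counts were also set against those of Ngp in the same library, which needs no scaling between libraries. For every 100 counts of Ngp there were 17.2, 16.0 and 20.4 counts of Mpo in liver and 28.4, 40.6 and 35.6 in spleen. For Csf3r the ratio was 20.1, 20.4 and 10.7 in liver and 4.06, 2.94 and 6.10 in spleen, and for Retnlg 7.97, 11.5 and 5.82 in liver and 3.69, 2.43 and 2.11 in spleen. Elane was at 2.56 to 4.58 in liver and 6.83 to 8.12 in spleen, and Mmp8 at 6.07 to 10.8 in liver and 1.09 to 4.43 in spleen. Ltf, a secondary granule gene like Ngp, was at 76.1, 85.6 and 77.2 in liver and 64.2, 69.1 and 71.0 in spleen. The ratios of Camp, at 23.5 to 36.3 in liver and 24.7 to 37.6 in spleen, and of S100a8, at 50.997 to 54.4 in liver and 38.4 to 51.3 in spleen, overlapped between tissues. Of these 8 genes, then, the primary genes Mpo and Elane were higher against Ngp in every spleen library, and the secondary gene Ltf and the late genes Csf3r, Retnlg and Mmp8 in every liver library. Ngp was itself higher in spleen (log2 fold change -1.26 ± 0.15). A gene with a smaller spleen excess, or with none, therefore lies higher against Ngp in liver. On their own levels Csf3r, Retnlg and Mmp8 overlapped between tissues and were not called by edgeR. The 8 genes were picked with the values known, so no test is given.

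A wider list of 63 other neutrophil genes did not move in 1 direction. Of 50 tested, 7 were higher in spleen, 8 higher in liver and 35 did not pass, with a median log2 fold change of -0.20, beside the background of 6.9% and 9.28%. The 4 with the smallest p were all higher in liver, and each is also made by other leukocytes. They were the nuclear lamina gene Lmnb1 (1.31 ± 0.10, edgeR adjusted p = 6.36e-08), the metalloprotease gene Adam8 (2.24 ± 0.20, edgeR adjusted p = 4.50e-07), the leukotriene B4 receptor gene Ltb4r1 (1.54 ± 0.20, edgeR adjusted p = 3.03e-05) and the gelatinase gene Mmp9 (1.28 ± 0.22, edgeR adjusted p = 0.000474). Among those higher in spleen, named after their values were seen, were Lyz2, lysozyme M of neutrophils and macrophages (-0.59 ± 0.15), Gfi1, a repressor needed for neutrophil development and also present in T cells (-0.59 ± 0.13), and the stefin genes Stfa1 (-0.99 ± 0.25) and Stfa3 (-1.30 ± 0.41). Stefin genes have near-identical copies, and their counts are uncertain. Sfpi1, the symbol in the table for the gene of PU.1, was at 12.99, 10.4 and 11.6 CPM in liver and 19.8, 14.1 and 16.8 CPM in spleen. It was not called (-0.48 ± 0.22, edgeR adjusted p = 0.167). Il1b, an inflammatory cytokine of activated neutrophils and macrophages, had 44, 26 and 18 counts in liver and 1, 0 and 2 in spleen. It was called higher in liver (4.44 ± 0.93, edgeR adjusted p = 0.00250). The remaining genes of this list called higher in liver were Cxcl2 (2.58 ± 0.60), Cebpb (1.12 ± 0.25) and Selplg (0.50 ± 0.09).

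Of 11 other eosinophil genes 2 were tested. Ccr3, the eotaxin receptor, also found on some T cells, was higher in liver (2.23 ± 0.21), and Gata1, a factor shared by eosinophils and erythroid cells, was higher in spleen (-1.40 ± 0.16). The eosinophil ribonuclease genes Ear2, Ear6 and Ear10 had 0 counts in all 6 libraries. Whether reads could be assigned to these genes was not tested, so 0 counts need not mean absence.

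Macrophage, erythroid and B cell markers had higher sums in every spleen library than in any liver library. Summed over 17 macrophage markers, the level was between 17.7 and 23.0 CPM in the liver libraries and between 92.3 and 151 CPM in the spleen libraries, and 10 of 11 tested were higher in spleen. Mrc1, Vsig4 and Spic, 3 of the 17, had 0 counts in all liver libraries. Vsig4 and Clec4f, 2 of the 17, had 0 counts in all spleen libraries, so Vsig4 showed no difference. The median log2 fold change of the 11 was -3.99. The 2 with the highest level averaged over both tissues were Csf1r (-1.61 ± 0.29), which was called, and Cd68 (-0.50 ± 0.29), which was not; in spleen the iron exporter gene Slc40a1, named after its values were seen, was at 19.1 ± 5.22 CPM, beside 1.86 ± 1.03 CPM in liver (-3.40 ± 0.34). Summed over 22 erythroid markers, the level was between 65.5 and 71.5 CPM in liver and between 326 and 430.4 CPM in spleen. Of these, 15 of 16 tested were higher in spleen, among them the globin Beta-s (-3.81 ± 0.25) but not Bpgm (0.21 ± 0.15). Of the 22, 6 had 0 counts in all liver libraries and 4 in all spleen libraries. The 4 were the globin genes Hbb-b1, Hbb-b2, Hba-a1 and Hba-a2, and whether reads could be assigned to them was not tested. B cell markers summed to between 162 and 199.7 CPM in liver and between 269.8 and 375 CPM in spleen, with 8 of 15 higher in spleen, including Cd79a (-0.69 ± 0.16) but not Cd79b (-0.37 ± 0.16). All primary granule sums in liver, from 16.0 to 26.1 CPM, lay below those in spleen, from 84.0 to 113 CPM. The same held for the secondary granule, macrophage, erythroid and B cell sums. It also held for the basophil and mast cell, the megakaryocyte and platelet, and the progenitor sums. The ratio of the spleen mean to the liver mean was 4.34 for the primary granule genes, 1.76 for the secondary, 1.40 for the late genes, 5.37 for macrophage and 5.36 for erythroid markers. It was 1.80 for megakaryocyte and platelet, 1.66 for B cell, 1.64 for basophil and mast cell and 1.52 for progenitor markers. For hepatocyte, monocyte, dendritic cell, and NK and CD8 T cell markers it was 0.92, 0.87, 0.79 and 0.45, in that order. Single genes weighed on the first 2 of these ratios. Of the 10 hepatocyte markers, 6 had 0 counts in all spleen libraries, and Trf made up 17.2 of the 20.7 CPM of the spleen mean. Ccr2 made up 154 of the 318.5 CPM of the monocyte mean in liver and 40.1 of 277.9 CPM in spleen. The part of other cells in the granulocyte result was not tested.

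Markers of further cell types were called less uniformly. The counts below stand beside 6.9% of all tested genes higher in spleen and 9.28% higher in liver. Monocyte markers were higher in spleen in 2 of 9 cases and higher in liver in 1; Lyz2 was one of the former, and Ccr2 (1.86 ± 0.16), which Treg cells also express, was the latter. Of the basophil and mast cell markers 0 of 3 tested were called by edgeR, including Kit (-0.60 ± 0.24) and Prss34 (-1.22 ± 0.45), and the mast cell protease genes Cma1, Tpsb2, Tpsab1 and Mcpt4 had 0 counts in all libraries. Of the megakaryocyte markers, Itga2b (-0.52 ± 0.32) and Gp1ba (-0.84 ± 0.44) were tested and not called. Among 6 progenitor markers tested, 1 was higher in spleen, the transcription factor Myb (-0.64 ± 0.10), and Kit was not called. Of 5 dendritic cell markers 0 were called, including Bst2 (0.33 ± 0.16) and Itgax (0.55 ± 0.44). NK and CD8 T cell markers were higher in liver in 5 of 9 cases, Prf1 (1.64 ± 0.28) and Nkg7 (liver 63.1 ± 13.02 CPM, spleen 23.8 ± 4.82 CPM) among them, and higher in spleen in 1. Of the hepatocyte markers Alb and Ahsg were higher in liver, where Alb was at 5.18 ± 2.66 CPM beside 0 counts in all spleen libraries, and Trf (-0.71 ± 0.23) was higher in spleen. Of the 10 T cell and Treg identity genes, 2 were higher in spleen and 2 higher in liver, Ikzf2 (0.35 ± 0.10) being one of the latter, and Foxp3 was not called (0.13 ± 0.09, edgeR adjusted p = 0.384).

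**Figure D4:**
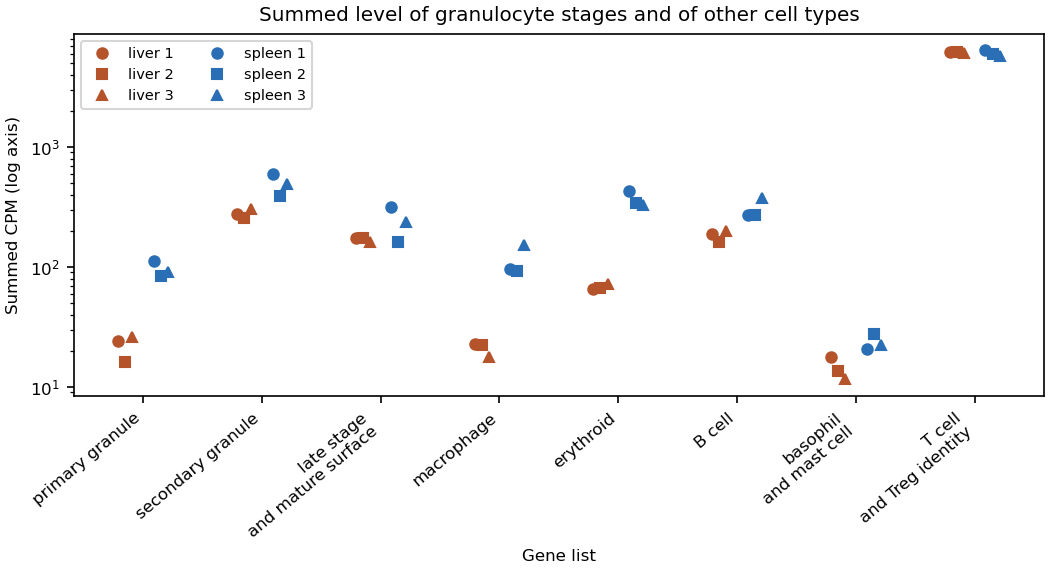
Summed CPM, on a log axis, of 3 granulocyte stages and 5 lists of other cell types in each library; marker shape gives the library number and colour the tissue. Sums of the primary granule, secondary granule, macrophage, erythroid, B cell, and basophil and mast cell lists separate liver from spleen. The late sums overlap, and the T cell and Treg identity sums stay between 5782 and 6402 CPM.

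Among the spleen libraries, the shallow library 1 was the highest for 20 of the 29 tested genes, library 3 for 8 and library 2 for 1. Among the liver libraries the highest was library 3 for 12 genes, library 1 for 11 and library 2 for 6. Summed over the 32 genes, the level was 1147, 748 and 948 CPM in spleen libraries 1, 2 and 3 and 558, 516 and 555 CPM in liver. Without spleen 1, 14 genes were higher in spleen and 2 higher in liver, beside 989 and 1245 of all 12079 genes tested. The log2 fold change of Mpo was then -2.12 (edgeR adjusted p = 6.23e-07).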

How the data were processed

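RNA was measured by sequencing in 3 liver and 3 spleen libraries of sorted CD4+GFP+ cells, numbered within a tissue in accession order. The table deposited by the authors holds unnormalized counts of reads per gene symbol. HISAT2 2.1, HTSeq 0.11 and mm9 are named by the submitters' processing notes; the annotation and strand setting are not given in the sources at hand, so reads of a gene and of an antisense or overlapping gene may be mixed. Rows that name no gene (25.5% to 29.0% of a library's counts) were left out.

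The granulocyte genes, gene lists, tests and other settings were chosen with earlier results of these data known. Counts were fitted in R 4.3.3 with edgeR 4.0.16 (filterByExpr, TMM, quasi-likelihood F test, liver minus spleen), with p adjusted over all genes tested. CPM uses TMM-scaled totals; SE is implied by the F statistic. The methods were tested on simulated data. All libraries differed from each other by more than sampling noise (chi-square over degrees of freedom, at least 4.65 for each pair). Other settings were DESeq2 1.42.0, limma-voom (limma 3.58.1), other scalings and filters, thinning to 1199410 counts, and leaving out each library. All members are accounted for by stage, with values per library for those with at least 5 CPM in the higher tissue; the rule also names the 4 smallest p of each other granulocyte list and the 2 genes of each marker list with the highest level averaged over both tissues. Older symbols were matched through RefSeq, exon lengths come from GENCODE M21 (GRCm38), and promoters from RefSeq GRCm38.p6. Intervals and floors cover counting error only.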

Additional observations from a re-analysis of the deposited data

How the results depend on the processing

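No paired analysis was possible because the labels give no number or animal shared by a liver and a spleen library. The count of granulocyte genes higher in spleen was 15 with all libraries, 11 to 17 over the other settings and 13 to 15 with a library left out. The calls over all genes moved too, from 808 in spleen and 1087 in liver with all libraries. They were 1243 and 1521 with limma-voom, where 17 members were higher in spleen. When thinned they were 404 and 621 of 9240 genes, where 11 members were higher in spleen. With a library left out, the calls over all genes ran from 486 in spleen and 722 in liver (without spleen 2) to 989 and 1245 (without spleen 1). The count higher in liver, 2 with all libraries, was 4 with limma-voom, 1 with all libraries thinned to equal depth, where 18 genes could be tested, and 1 to 2 with a library left out (1 without liver 2 or spleen 2). Of the other neutrophil genes the 7 higher in spleen became 2 when thinned, with 22 tested, and 3 to 6 with a library left out; they numbered 4 without liver 2 or spleen 2 and 3 without liver 3. Of the 17 called granulocyte genes, 13 kept their call in every alternative that tested them; the other 4 were Ctsg, Cebpe, Fcnb and Itgam. Limma-voom added Cd177, Anxa3, Csf3r and Hdc, and Anxa3 was also called without liver 3. Direction turned, with no call on either side, for Cebpa (-0.11 with limma-voom, -0.088 without liver 1 and -0.0082 without liver 3), Hp (0.016 without liver 2 and 0.095 without spleen 3), Mmp8 (-0.31 when thinned and -0.23 without spleen 2) and Fpr2 (0.32 with limma-voom); leaving out a library gave Cebpa from -0.09 to 0.38, Hp from -0.39 to 0.10 and Mmp8 from -0.23 to 0.78. The causes were not tested. Depth limits the low genes: spleen 1 held 1 to 17 counts for Cebpe, Ctsg, Fcnb, Cxcr2, Fpr1, Mmp8 and Retnlg.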
